A study of Mus musculus with 4 samples.

Results

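In uteri of pregnant mice, 12 genes were close to all-or-none between WT and Qa-2- animals: both libraries of one strain held many times the reads of either library of the other. In 11 of them the lower strain had at most 9 counts, and in Upk3b it kept 59 and 75. They were chosen from the counts by 2 conditions. CPM (the count of a gene scaled to the total count of its library) in the lower library of one strain had to exceed 6 times those in the higher library of the other strain, and both libraries of the higher strain had to hold at least 30 counts. Symbols starting with H2-Q and haemoglobin genes were left out. The files list 55421 genes, of which 14626 had 30 counts in both libraries of at least 1 strain, and 12 of these met the ratio (0.0820%). Of the 12 genes, 6 were higher in WT and 6 in Qa-2-, which is 0.0422% of the genes that could be selected in either direction. The selection used the strain contrast itself, so all values of these genes between the strains are given as a description, without a test.

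The libraries are 2 of WT mice (C57BL/6J) and 2 of Qa-2- mice (B6.Cg-H2b3/FlaCmwJ, also named B6.K1), made from frozen uterus tissue at E18.5 of syngeneic pregnancies. The Qa-2- line is an H2 congenic line that arose by crossing of B6.A-H2-T18a with B6.AK-H2k, so its chromosome 17 can carry sequence of other H2 haplotypes beside the missing Qa-2 genes. The WT mice came from Charles River and the Qa-2- mice from The Jackson Laboratory, and effects of the missing antigen, of the rest of the congenic interval and of the separate breeding of the colonies cannot be told apart in this design. The labels number the 2 samples of each strain and do not say more of the animals.

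Genes of this kind differ in what they are. A processed pseudogene is a copy of a spliced messenger RNA that was written back into the genome, usually far from the gene it came from. An unprocessed pseudogene is a duplicated piece of the genome that keeps the exon structure of the original. Congenic and related inbred lines can differ in such copies as well as in the activity of ordinary genes, and read counts show only how many reads could be placed on the reference copy. The mesothelium, the flat epithelium that covers the outer surface of the uterus and other abdominal organs, is known for uroplakin 3B, mesothelin and mucin 16.

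Total counts were between 33286390 and 41041299 per library, so that 30 counts stand for 0.731 to 0.901 CPM and a floor of 3 counts for 0.0731 to 0.0901 CPM, which covers counting error only. H2-Q6 and H2-Q7, which encode Qa-2 and check the labels, had 4204, 1192 and 6318, 1251 counts in the 2 WT libraries and 2 to 4 counts in the Qa-2- libraries. H2-Q2 (367 and 225 against 5 and 0 counts) and H2-Q5 (367 and 198 against 0 and 0) also met the ratio and were left out by name. The uterine smooth muscle genes Myh11, Acta2, Des, Cnn1 and Actg2 were high in all 4 libraries, with summed CPM of 6 smooth muscle markers between 10066 and 33248. WT replicate 2 was highest and Qa-2- replicate 2 lowest in this sum. The male fetal markers Ddx3y, Eif2s3y, Kdm5d and Uty reached at most 4 counts.

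The plot of the counts shows both directions of the selection. In WT, the 6 higher genes lay between 43 and 952 counts. In Qa-2-, the other 6 lay between 30 and 105 counts.

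**Figure D1:**
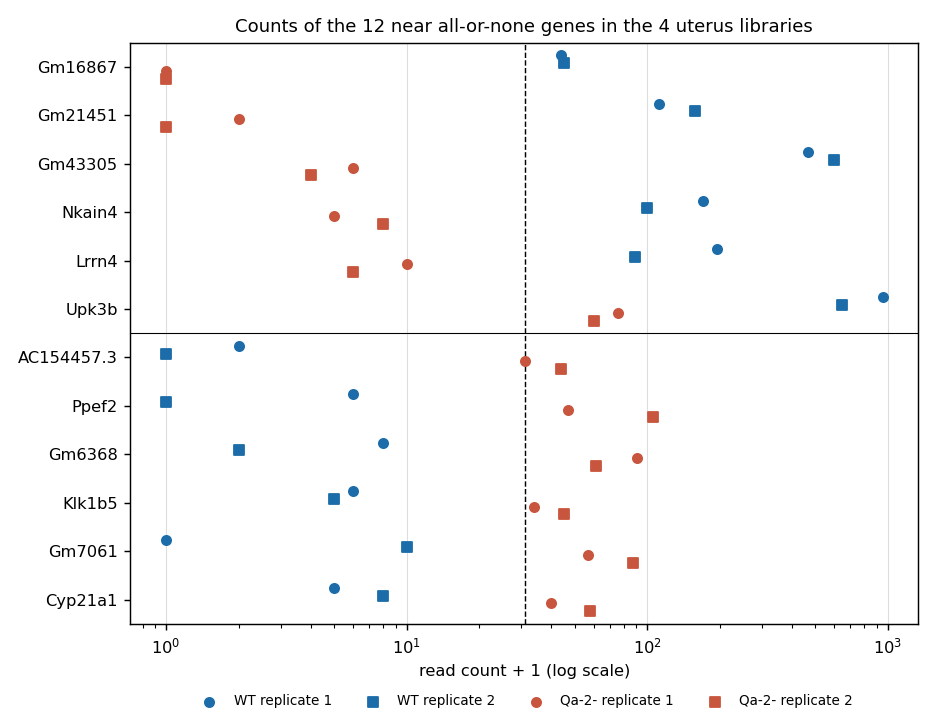
Read counts plus 1 (log axis) of the 12 genes in the 4 libraries, with circles for replicate 1, squares for replicate 2, blue for WT and red for Qa-2-. The dashed line marks the minimum of 30 counts and the horizontal line separates the 6 genes higher in WT from the 6 higher in Qa-2-. The gap between the strains is widest for Gm16867, Gm21451 and Gm43305, where the Qa-2- libraries hold 0 to 5 counts, and Upk3b keeps 59 and 75 counts in Qa-2-.

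**Figure D2:**
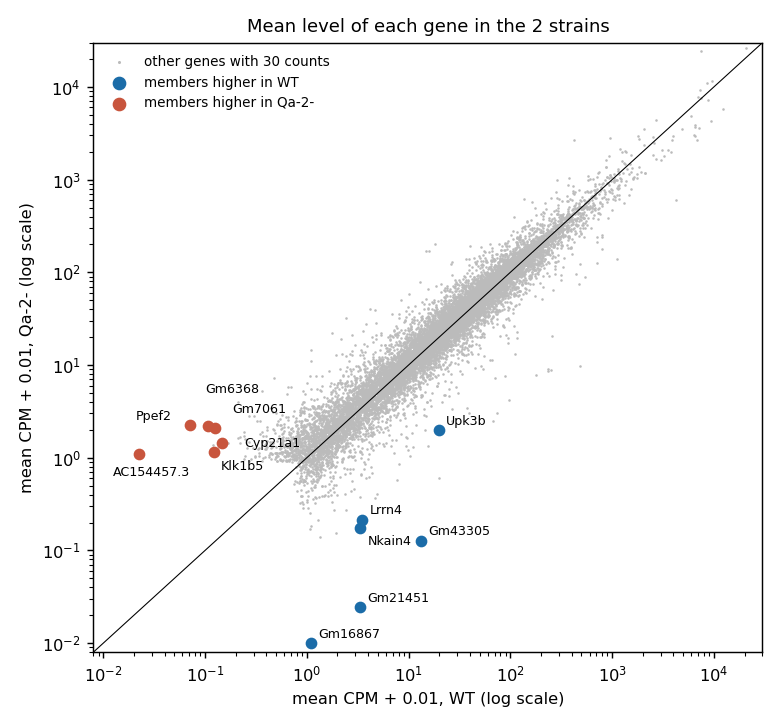
Mean CPM plus 0.01 of each gene with 30 counts in both libraries of a strain, WT on the horizontal and Qa-2- on the vertical axis (log scales), with equal levels on the diagonal. The 6 genes higher in WT (blue) and the 6 higher in Qa-2- (red) lie away from the diagonal on either side, and some other genes (grey) lie as far from it as Upk3b, Klk1b5 and Cyp21a1, since a strain mean does not require both libraries to differ. Upk3b with 19.8 CPM in WT has the highest level of the 12.

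By annotation, 7 of the 12 genes were protein-coding (58.3%, against 92.0% of the 14626 genes with 30 counts) and 4 were pseudogenes (33.3% against 1.83%). The remaining gene, Gm43305, is a processed transcript, that is, a spliced or unspliced RNA without an annotated protein. Processed pseudogenes were 3 of the 12 (25% against 1.15%), and all 3 were higher in Qa-2-. The only unprocessed pseudogene, Gm21451, was higher in WT. A single exon was annotated for 4 of the 12 (33.3% against 5.24%), which are the 3 processed pseudogenes and Gm43305. The protein-coding genes were 4 higher in WT (Gm16867, Nkain4, Lrrn4 and Upk3b) and 3 higher in Qa-2- (Ppef2, Klk1b5 and Cyp21a1). Short lists of this size carry wide counting error, and these shares describe the 12 genes only.

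The 12 genes lay on 6 chromosomes. Chromosome 14 held 3 of them (25%, against 3.40% of the genes with 30 counts), all higher in WT, and chromosome 2 held Nkain4 and Lrrn4, both higher in WT. Chromosome 17, which carries the H2 complex, held Cyp21a1 and AC154457.3 (16.7% against 4.80%), both higher in Qa-2-. The X chromosome held Gm6368 and Gm7061 (16.7% against 3.20%), both higher in Qa-2-. Chromosome 5 held Upk3b, higher in WT, and Ppef2, higher in Qa-2-, which lie 43.8 Mb apart. Klk1b5 lay alone on chromosome 7. Within 10 Mb of H2-Q7 there was 1 of the 12 genes, Cyp21a1 (8.33% against 1.91%). Only Gm16867 and Gm21451 had another of the 12 genes within 1 Mb, and they overlap.

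The sequences show how close the pseudogenes are to genes that are expressed in the same tissue, which decides whether a read can be placed on one of them alone. For each of the 3 processed pseudogenes, the stretch of 100 bases with the most differences from its parent gene is printed with the parent's stretch (both from the GENCODE M21 transcripts), and capitals mark the bases that differ.
AC154457.3: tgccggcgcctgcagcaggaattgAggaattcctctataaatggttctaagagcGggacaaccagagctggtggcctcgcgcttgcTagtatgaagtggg
Mrps10: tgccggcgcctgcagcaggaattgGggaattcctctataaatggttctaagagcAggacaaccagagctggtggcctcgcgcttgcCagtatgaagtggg
Gm6368: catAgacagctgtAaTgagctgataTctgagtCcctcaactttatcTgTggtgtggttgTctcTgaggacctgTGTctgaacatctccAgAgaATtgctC
Hsp90ab1: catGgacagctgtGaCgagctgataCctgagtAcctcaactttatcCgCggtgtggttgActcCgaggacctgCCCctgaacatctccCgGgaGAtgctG
Gm7061: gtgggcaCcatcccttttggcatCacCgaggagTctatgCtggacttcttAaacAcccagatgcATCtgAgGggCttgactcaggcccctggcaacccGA
U2af2: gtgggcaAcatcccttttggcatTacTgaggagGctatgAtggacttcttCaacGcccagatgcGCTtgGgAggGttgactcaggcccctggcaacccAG
In these stretches AC154457.3 differs from Mrps10 at 3 bases, Gm6368 from Hsp90ab1 at 17 and Gm7061 from U2af2 at 15.

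For Gm21451, bases 2299 to 2398 of the transcript are printed, with the bases that follow the end of its match to Loxl2 in capitals.
Gm21451: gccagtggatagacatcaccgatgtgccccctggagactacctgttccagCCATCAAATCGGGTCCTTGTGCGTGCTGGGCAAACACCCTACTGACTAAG
The first 2348 of its 2775 bases are identical to Loxl2 transcript sequence, and the last 427 bases match Gm27222, an antisense RNA annotated inside Slc25a37. The transcript thus joins sequence of 2 genes that lie apart on chromosome 14.

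Of the genes higher in WT, 2 lie in one region of chromosome 14 that shares its sequence with other genes. Gm21451, an unprocessed pseudogene of Loxl2 with 14 exons (chr14:69390854-69480287, plus strand, GRCm38), had 111 and 157 counts in WT and 1 and 0 in Qa-2-. The lower WT library exceeded the higher Qa-2- library 94.4-fold in CPM. The ratio of the summed counts was 227 with an exact 95% counting interval from 40.4 to 9009. This interval covers the counting error of the pooled reads only. It leaves out the spread between libraries, and the gene was chosen on this contrast, so neither end limits the ratio of the strains. Loxl2 encodes a lysyl oxidase that cross-links collagen and elastin.

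Gm16867 (chr14:69363504-69503362, minus strand), annotated as protein-coding with 13 exonic pieces, had 43 and 44 counts in WT and 0 and 0 in Qa-2-. It was at least 11.6-fold higher in WT when the Qa-2- libraries were set to the floor of 3 counts per library. Its 2 WT libraries differed 1.07-fold in CPM, the smallest difference within a strain among the 12 genes. Gm21451 lies inside Gm16867 on the opposite strand, over 89434 bases, and strand-specific counting keeps the reads of the pair apart.

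Both genes consist almost wholly of sequence found elsewhere in the annotation. Of all stretches of 100 bases, the read length, 96.3% in Gm21451 and 91.1% in Gm16867 occur without a difference on the same strand of a transcript of another gene. Only 99 stretches of Gm21451 are its own. They cross the junction printed above. Gm16867 matches Gm27177, an antisense RNA that overlaps Loxl2, over 2946 identical bases and Slc25a37, the mitochondrial iron importer mitoferrin, over 382. Read pairs that mapped to several places were not counted. The stretches describe single reads, and which pairs could be counted on either gene was not examined.

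The genes that share these sequences did not follow the same pattern. Loxl2 (chr14:69609068-69695834) had 10355 and 12723 counts in WT and 8622 and 4104 in Qa-2-. Both WT libraries exceeded both Qa-2- libraries. Slc25a37, 78.4 kb from Gm16867, had 952 and 879 counts in WT and 1449 and 1306 in Qa-2-, and so did not overlap in the other direction. Entpd4, a nucleotidase gene, overlaps the end of Gm16867 on the opposite strand and was not among the transcript matches of either gene. It had 5 to 14 counts in all libraries and overlapped between the strains. Gm27177 had 3 to 9 counts in 3 libraries and 0 in Qa-2- replicate 2, and Gm27222 had 0 in all 4. These are too few to show or lack a pattern, as pairs with several positions were not counted. DNA of the strains was not analysed here, and the number of copies of this region in each strain was not tested.

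Gm43305 (chr14:54292443-54297456, minus strand), 15.1 Mb away, was the most abundant of the genes that nearly vanished, with 466 and 597 counts in WT and 5 and 3 in Qa-2-. The lower WT library exceeded the higher Qa-2- library 79.3-fold. It is annotated over 5014 bases and its reads were 13.3 ± 2.69 CPM in WT (mean ± SD, n = 2). Its transcript matched 13 other genes in part, 6 of them at 95% identity or more. The closest long match at that identity was the lincRNA Gm42031 (98.7% over 748 bases), which had 1 to 5 counts in every library. Another of the matched genes, the lincRNA AI506816, was far more abundant than Gm43305, with 4087 and 6399 counts in WT and 6130 and 3943 in Qa-2-, which overlapped. Of the 100-base stretches of Gm43305, 7.52% occur without a difference in other transcripts on the same strand.

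The 250 bases before the RefSeq start of Gm43305 (chr14:54297489-54297738, minus strand, GRCm38.p6) hold 1 match to TATAAA, in capitals, which begins 27 bases before the start.
Gm43305: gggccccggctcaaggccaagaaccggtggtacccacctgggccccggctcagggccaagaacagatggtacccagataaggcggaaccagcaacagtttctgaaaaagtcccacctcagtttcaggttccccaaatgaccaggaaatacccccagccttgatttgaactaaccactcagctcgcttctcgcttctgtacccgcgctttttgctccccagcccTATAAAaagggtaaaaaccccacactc
The letters TATAAA, searched on both strands, occur in the same window of 12.4% of 32817 RefSeq promoters, and neither GGGCGG (32.7%) nor CCAAT (33.8%) occurs in this one. The match is a description of the sequence.

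Around Gm43305, the genes with 30 counts within 100 kb were Dad1, Abhd4, Oxa1l and Slc7a7, and none was higher in WT without overlap on library totals. On TMM-scaled library sizes (the trimmed mean of M-values, a scaling to the bulk of genes), Dad1, Abhd4 and Slc7a7 were higher in WT without overlap. Abhd4, a lipase gene 21.8 kb away, had 4591 and 3402 counts in WT and 3144 and 3150 in Qa-2-, a ratio of 0.912 between the lower WT and the higher Qa-2- library.

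The other genes higher in WT, Upk3b, Lrrn4 and Nkain4, are known as genes of the mesothelium. Upk3b (chr5:136038496-136046487, plus strand), which encodes the membrane protein uroplakin 3B, had 952 and 646 counts in WT and 75 and 59 in Qa-2-. In CPM it was 19.8 ± 4.81 in WT and 1.96 ± 0.265 in Qa-2- (mean ± SD, n = 2 each). The ratio of the lower WT to the higher Qa-2- library was 7.63. Per kilobase of exon, Upk3b was the highest of the 12 genes, at 6.57 and 4.64 CPM per kb in the WT libraries.

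Lrrn4 (chr2:132868305-132880891, minus strand), a membrane protein with leucine-rich repeats, had 194 and 88 counts in WT and 9 and 5 in Qa-2-. Nkain4 (chr2:180934772-180954699, minus strand), whose protein interacts with the sodium pump, had 170 and 99 counts in WT and 4 and 7 in Qa-2-. All 3 genes were higher in WT replicate 1 than in WT replicate 2, by 1.41-fold for Upk3b, 1.65-fold for Nkain4 and 2.12-fold for Lrrn4 in CPM. Their ratios of lower to higher library were 8.67 for Lrrn4 and 11.9 for Nkain4. None of the 3 shares a stretch of 100 bases with a transcript of another gene. Upk3bl, a relative of Upk3b 8.01 kb away, was higher in Qa-2-, with 2649 and 1603 counts in WT and 2944 and 5396 in Qa-2-.

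The promoters of Upk3b and Lrrn4 are shown as RefSeq gave an entry for these among the 3 selected genes of the mesothelium. They are the 250 bases before the start of the first (chr5:136038246-136038495, plus strand) and of the second (chr2:132880863-132881112, minus strand), GRCm38.p6, written 5′ to 3′ and all in lower case since none of the letters searched occurs in them.
Upk3b: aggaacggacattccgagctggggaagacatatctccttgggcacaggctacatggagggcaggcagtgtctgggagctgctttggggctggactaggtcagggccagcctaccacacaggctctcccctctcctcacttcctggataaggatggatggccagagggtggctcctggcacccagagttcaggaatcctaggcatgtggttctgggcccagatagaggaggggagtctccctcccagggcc
Lrrn4: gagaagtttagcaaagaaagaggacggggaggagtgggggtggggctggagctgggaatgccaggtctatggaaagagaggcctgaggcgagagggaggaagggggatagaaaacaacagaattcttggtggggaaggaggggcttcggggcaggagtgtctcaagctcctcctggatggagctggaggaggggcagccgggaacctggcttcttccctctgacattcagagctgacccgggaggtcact
Neither GGGCGG nor a match to TATAAA or to CCAAT occurs in these windows on either strand. Their GC content was 60.8% and 59.2%, against a median of 52.4% and quartiles of 45.2% and 61.2% over all RefSeq promoters. The promoters of Ppef2 and Klk1b5, which were higher in Qa-2-, also lacked these letters and had a GC content of 58.4% and 56.4%. The entries of Gm16867, which was higher in WT, were below the median, at 46.0% and 45.2%. The former holds 1 match to CCAAT, which begins 76 bases before the start. Of the 12 genes, 6 had a promoter entry.

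The list of mesothelial genes held 2 more genes. Msln, which encodes mesothelin, had 1252 and 1159 counts in WT and 653 and 332 in Qa-2-, higher in WT without overlap. Krt19, a keratin that other epithelia also express, had 16226 and 12720 counts in WT and 25672 and 20009 in Qa-2-, higher in Qa-2- without overlap. The summed CPM of this list, which Krt19 dominates, was 458 and 373 in WT and 756 and 613 in Qa-2-.

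A further 7 mesothelial genes were chosen after values were seen, and 5 of the 6 with 30 counts were higher in WT without overlap, as were 19.0% of all 14626 genes (25.7% on TMM-scaled library sizes). Muc16, which encodes mucin 16, had 118 and 75 counts in WT and 12 and 6 in Qa-2-. Upk1b, another uroplakin, had 157 and 108 against 18 and 7. Gpm6a, a membrane glycoprotein, had 1222 and 624 against 201 and 126. Their ratios of the lower WT to the higher Qa-2- library were 5.54 for Muc16, 5.32 for Upk1b and 2.75 for Gpm6a, below the ratio of 6.

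Rspo1, a secreted activator of Wnt signalling, and Cldn15, a tight junction protein, were higher in WT with smaller differences (2177 and 3604 against 1415 and 996 counts, and 629 and 1022 against 334 and 278). Wt1, a transcription factor of the mesothelium that uterine stroma and muscle also express, overlapped between the strains (2542 and 3128 against 2942 and 1629 counts). Bnc1, a zinc finger protein, had 44 and 24 counts in WT and 3 and 2 in Qa-2-, and missed the selection only by the minimum of 30. RNA was isolated from milligram amounts of frozen tissue, and the paper does not state which part of the uterus they came from. In unsorted tissue, fewer cells of a type, less RNA per cell and the part sampled cannot be told apart.

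**Figure D3:**
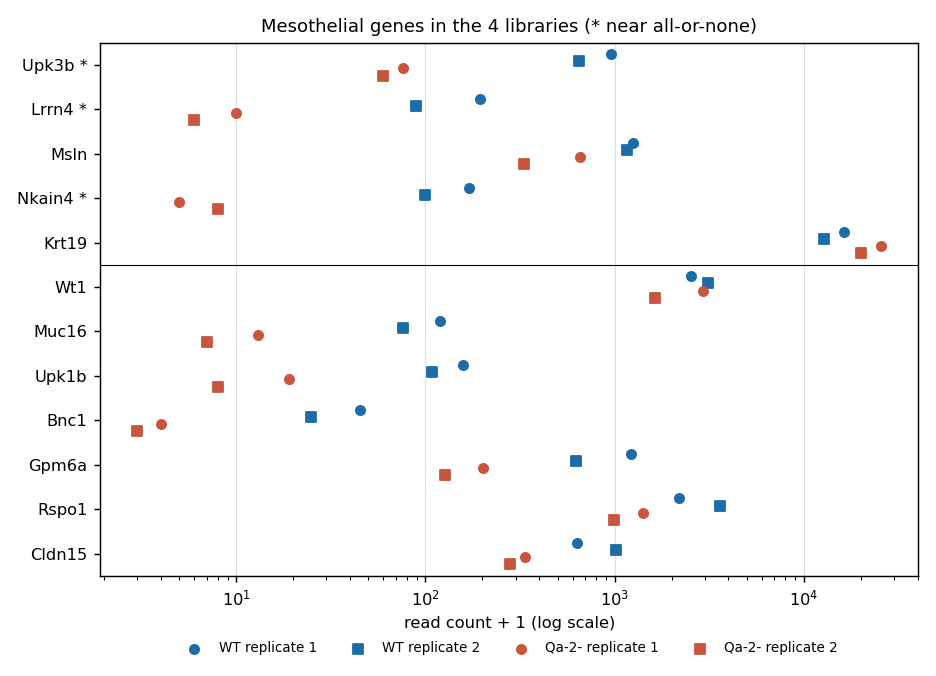
Read counts plus 1 (log axis) of mesothelial genes in the 4 libraries, in the colours and symbols of the plot of the 12 genes. The upper 5 are the list and the lower 7 were chosen after values were seen; asterisks mark Upk3b, Lrrn4 and Nkain4. In counts, as in CPM, the Qa-2- libraries lie below both WT libraries for 10 of the 12 genes plotted. They overlap with the WT libraries for Wt1 and lie above them for Krt19. Of all 14626 genes that met the count minimum, 19.0% were higher in WT without overlap (25.7% on TMM-scaled library sizes). Among the 10, those with asterisks were selected on this contrast, and Bnc1 is below the count minimum. The count of 10 is therefore a description.

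Markers of other cell types moved between the libraries as well. On library totals, 5 of 6 smooth muscle markers were higher in WT without overlap, beside 19.0% of all genes, and 4 of 7 markers of the uterine epithelium were higher in Qa-2-, beside 32.2% (25.7% and 24.7% of all genes on TMM-scaled library sizes). Adipoq, an adipocyte hormone, reached 126 counts in WT replicate 1 and at most 10 elsewhere. The placental genes Prl3b1 and Psg21 were at 155 and 308 counts in WT replicate 2 and at 0 elsewhere, whereas Tpbpa, of the spongiotrophoblast, had 4 and 271 counts in WT and 115 and 5 in Qa-2-, and the imprinted gene Peg10 was highest in Qa-2- replicate 1 (2626 counts, with 533 to 1098 elsewhere). Prl8a2, a decidual prolactin, and Prf1, the perforin of killer cells, stood out in WT replicate 1, the library in which Upk3b, Lrrn4 and Nkain4 were also highest, with 4387 and 3140 counts against at most 464 and 159 elsewhere. The other T and NK cell markers, Cd3e, Cd8a, Klrb1c and Gzma, were not highest in that library. Of the other stroma and decidua markers only Hoxa10 and Hoxa11 were, by far smaller margins (6268 counts of Hoxa11 against 3533 to 4006 elsewhere). Afp, a yolk sac gene, had 13253 counts in Qa-2- replicate 1 and 158 to 1268 in the others. Their part in the values of the 12 genes was not tested.

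The genes higher in Qa-2- were 3 processed pseudogenes and 3 protein-coding genes. AC154457.3 (chr17:65438128-65438697, minus strand), a copy of Mrps10, had 1 and 0 counts in WT and 30 and 43 in Qa-2-. The lower Qa-2- library exceeded the higher WT library 35.3-fold. The ratio of summed counts was 86.1 with an exact 95% counting interval from 14.97 to 3446, which likewise leaves out the spread between libraries. AC154457.3 lies 30 Mb from H2-Q7, inside Tmem232 and on the same strand, and Tmem232 had 36 and 0 counts in WT and 4 and 5 in Qa-2-.

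Mrps10, which encodes a protein of the small subunit of the mitochondrial ribosome, lies on the same chromosome (chr17:47368887-47381417), 11.9 Mb from H2-Q7. It had 889 and 603 counts in WT and 680 and 783 in Qa-2-, which overlapped in CPM. The copy is 98.4% identical to it over 570 bases with 9 mismatches, and the 100-base stretches hold 0 to 3 mismatches with a median of 1. Of the stretches of AC154457.3, 28.9% occur without a difference in Mrps10 and cannot place a single read. As a share of the parent's count, AC154457.3 was 0.112% and 0% in WT and 4.41% and 5.49% in Qa-2-. The Mrps10 alleles of the Qa-2- line were not examined.

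Gm6368 (chrX:141980175-141982321, plus strand), a copy of Hsp90ab1, had 7 and 1 counts in WT and 90 and 60 in Qa-2-, a ratio of 10.6 between the lower and higher libraries. Hsp90ab1, the constitutive cytosolic chaperone HSP90 beta, lies on chromosome 17 (chr17:45567775-45573271), 10.1 Mb from H2-Q7. It had 55663 and 52037 counts in WT and 47469 and 51995 in Qa-2-, higher in Qa-2- without overlap in CPM (a ratio of 1.002) but overlapping on TMM-scaled library sizes. In CPM the parent was 1339 ± 25.1 in WT and 1461 ± 143 in Qa-2- (mean ± SD, n = 2 each).

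The copy is 91.0% identical to Hsp90ab1 over 2177 aligned bases, with 162 mismatches and 19 gap openings, and no stretch of 100 bases is shared. Each stretch without a gap held at least 2 mismatches. Its count was 0.190% and 0.115% of that of the parent in Qa-2- and 0.0126% and 0.00192% in WT. The copy thus gave counts that are a very small share of those of its parent in every library. The 2 other copies of the same parent that matched best, Gm13498 and Gm7002, had 1 to 4 and 0 to 2 counts. No gene with 30 counts lay within 100 kb of Gm6368 or AC154457.3.

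Gm7061 (chrX:94772619-94774034, minus strand), a copy of U2af2, had 0 and 9 counts in WT and 56 and 86 in Qa-2-, a ratio of 7.02. U2af2 encodes the splicing factor that binds the polypyrimidine tract and lies on chromosome 7 (chr7:5062143-5079938). It had 4555 and 4569 counts in WT and 4389 and 5011 in Qa-2-, higher in Qa-2- without overlap, like its copy, at a ratio of 1.08 in CPM and 1.02 on TMM-scaled library sizes. Copy and parent are 91.6% identical over 1419 bases with 110 mismatches, with 2 to 15 mismatches per 100 bases, and no stretch is shared. The counts of Gm7061 were 0% and 0.197% of those of the parent in WT and 1.28% and 1.72% in Qa-2-.

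A further processed pseudogene lies 0.944 kb from Gm7061 on the same strand. Gm14830 (chrX:94774978-94775677), a copy of the proteasome gene Psmb1 with 90.5% identity over 715 bases, had 0 and 0 counts in WT and 17 and 27 in Qa-2-. It missed the selection only by the minimum of 30 counts. It was 1 of 17 genes with 10 to 29 counts in a library that passed the ratio in favour of Qa-2-, and the only processed pseudogene among them. Both neighbours on the X chromosome were thus present in Qa-2- and absent or nearly absent in WT, and Zxdb, a zinc finger gene 42.4 kb away with 192 and 186 against 211 and 217 counts, was higher in Qa-2- without overlap as well, at a ratio of 1.28 in CPM.

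Processed pseudogenes as a class did not have this pattern. Of the 168 with 30 counts, 59 (35.1%) were higher in Qa-2- without overlap and 24 (14.3%) were higher in WT, beside 32.2% and 19.0% of all 14626 genes. On TMM-scaled library sizes these were 40 (23.8%) and 34 (20.2%), beside 24.7% and 25.7% of all genes.

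**Figure D4:**
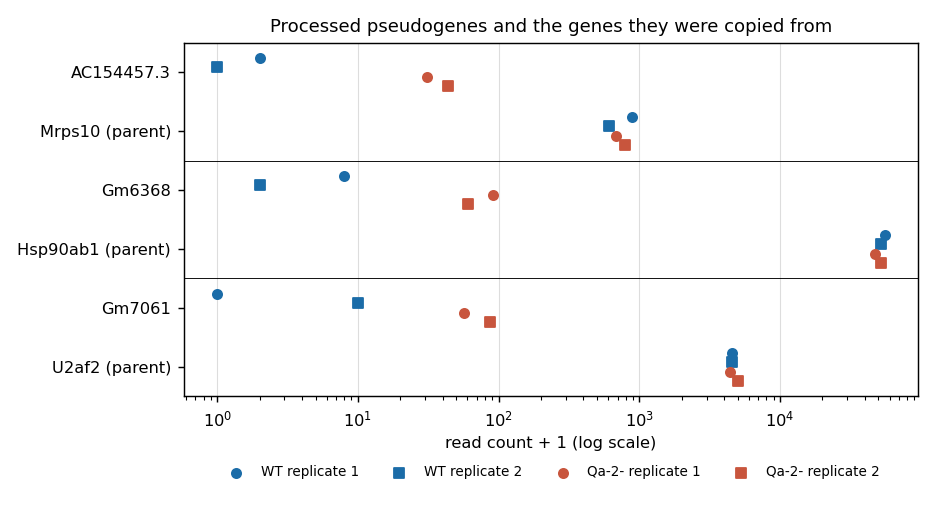
Read counts plus 1 (log axis) of the 3 processed pseudogenes and of the genes they were copied from, in the colours and symbols of the plot of the 12 genes. The pseudogenes lie at 0 to 9 counts in WT and 30 to 90 in Qa-2-, whereas the parents lie close together in all 4 libraries, from 603 counts for Mrps10 to 55663 for Hsp90ab1.

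The protein-coding genes higher in Qa-2- have known functions outside the uterus. Ppef2 (chr5:92226679-92256278, minus strand), a calcium-binding phosphatase of photoreceptors, had 5 and 0 counts in WT and 46 and 105 in Qa-2-. The ratio was 10.8 between the lower Qa-2- and the higher WT library, and the Qa-2- libraries differed 2.39-fold in CPM, the widest spread within the higher strain among the 12 genes. It had short matches to 105 other genes, none at 95% identity, of which the best covered 169 bases, and no stretch of 100 bases is shared.

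Of 6 genes with 30 counts near Ppef2, 4 were higher in Qa-2- without overlap, beside 32.2% of all genes (24.7% on TMM-scaled library sizes), and 2 were higher in WT. Naaa, a lysosomal amidase gene 1.38 kb away, had 2308 and 2006 counts in WT and 3205 and 4082 in Qa-2-, a ratio of 1.63. Sdad1 (914 and 815 against 1201 and 1289) and the pseudogene Gm15710 (107 and 80 against 142 and 138) did not overlap in the same direction either. Art3 and the chemokine gene Cxcl10, 75.5 and 90.4 kb away, were higher in WT without overlap.

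Klk1b5 (chr7:44215945-44220703, plus strand), a glandular kallikrein of the serine protease family, had 5 and 4 counts in WT and 33 and 44 in Qa-2-, a ratio of 7.76. It lies in a cluster of close relatives. Its transcript matched 20 genes, with Klk1 as the best match (94.4% over 957 bases), and 5.26% of its 100-base stretches occur in another transcript, so its level is uncertain where reads of relatives could be misplaced. Klk1, 4.66 kb away, had 17678 and 5449 counts in WT and 21633 and 44974 in Qa-2-, a ratio of 1.44.

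The 3 other kallikreins with 30 counts were higher in Qa-2- without overlap, as were 32.2% of all genes and the neighbours 2410002F23Rik (a ratio of 1.58) and Clec11a (1.34), which are not kallikreins. Klk1b24 had 236 and 62 counts in WT and 385 and 754 in Qa-2-, a ratio of 1.92, the largest among the 42 neighbours of the 12 genes with 30 counts. Klk1b21 had 343 and 92 against 439 and 1039. In all 3 relatives WT replicate 2 was lowest and Qa-2- replicate 2 highest in CPM. Klk1b5 had the same order, but its WT libraries held 5 and 4 counts, a difference within counting error. The summed CPM of the 7 epithelial markers, 3557 and 1787 in WT and 3102 and 8253 in Qa-2-, had the same lowest and highest library as the 3 relatives. Ltf gave 5183 of the 8253 CPM in Qa-2- replicate 2 and was itself lowest in Qa-2- replicate 1, at 421 CPM. The part of the epithelium in the counts of Klk1b5 was not tested. The remaining 10 of the 13 kallikreins looked at reached at most 43 counts.

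Cyp21a1 (chr17:34801348-34804561, minus strand), the steroid 21-hydroxylase of the adrenal cortex, had 4 and 7 counts in WT and 39 and 57 in Qa-2-, a ratio of 6.29, the closest to the threshold. It fell below the ratio of 6 on TMM and on DESeq2 scaling. It is the only one of the 12 genes inside the H2 complex, 0.639 Mb from H2-Q7, in the region that also holds the complement genes. Its best match was the pseudogene Cyp21a2-ps (97.4% over 1182 bases), which had 0 and 0 counts in WT and 1 and 2 in Qa-2-. Of its 100-base stretches, 5.08% occur in another transcript on the same strand.

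Genes beside Cyp21a1 had mixed directions. C4b, a complement gene 57.5 kb away, had 3382 and 5392 counts in WT and 2155 and 1741 in Qa-2-, higher in WT. C4a, 4.53 kb away, had 15 and 39 against 29 and 16 and overlapped. Of the 10 neighbours with 30 counts, 3 did not overlap (51.2% of all genes did not), of which 2 were higher in Qa-2-, at ratios up to 1.09. Other genes of steroid synthesis were not all in the direction of Cyp21a1. Hsd3b1 was higher in Qa-2- (6 and 10 against 231 and 42 counts), Cyp11b1 (576 and 86 against 36 and 22) and Cyp17a1 (69 and 42 against 32 and 20) were higher in WT, and Cyp11a1 ranged from 78 to 7218 counts with both extremes in WT.

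The genes around the 12 were looked at with the same count minimum. Within 100 kb there were 42 other genes with 30 counts. Of these, 26 (61.9%) did not overlap between the strains, beside 51.2% of all 14626 genes, with 4 higher in WT (9.52%, beside 19.0% of all genes) and 22 in Qa-2- (52.4% beside 32.2%). On TMM-scaled library sizes 7 were higher in WT (16.7% beside 25.7%) and 19 in Qa-2- (45.2% beside 24.7%), and 50.5% of all genes did not overlap. The largest ratio of the lower to the higher library among the 42 was 1.92. A neighbour above 6 would itself have been selected, as Gm21451 beside Gm16867 was. In 2 places a gene with fewer counts had the pattern of its neighbour, Gm14830 beside Gm7061 and Gm14341, an antisense RNA that overlaps Nkain4 on the opposite strand, with 5 and 5 counts in WT and 0 and 0 in Qa-2-.

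**Figure D5:**
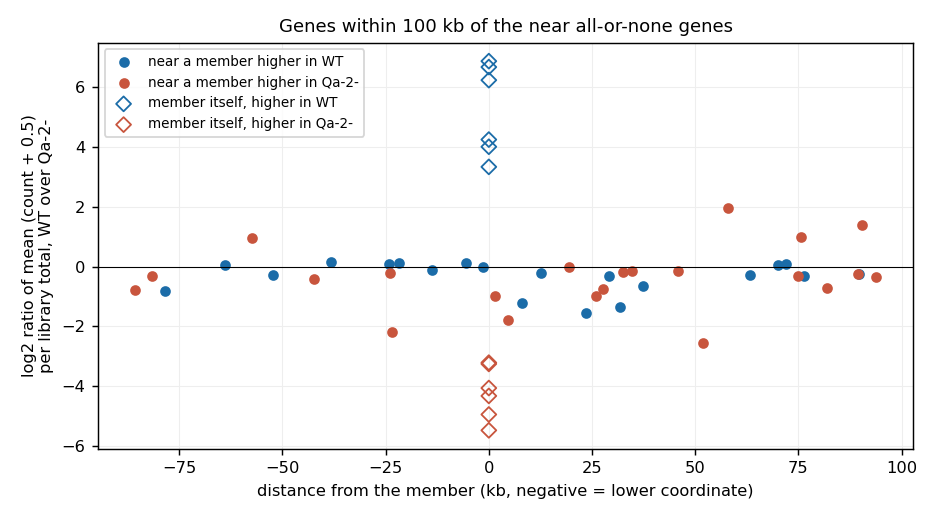
The log2 ratio of mean CPM, WT over Qa-2-, of neighbours with 30 counts, with a small constant added to each mean. The horizontal axis is the distance in kb from the nearest end of the gene of the 12 that they lie beside. Colours show the strain in which that gene was higher. Open diamonds at distance 0 are the 12 genes themselves. The neighbours lie on both sides of 0, from -2.54 for Cfb beside Cyp21a1 to 1.97 for C2, and Klk1b24 beside Klk1b5 is at -2.17. Cfb (254 and 135 counts in WT, 158 and 1741 in Qa-2-) and C2 (1907 and 226, 93 and 350) both overlapped between the strains.

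The selection bears on the spread within the higher strain, which is given as a description. In WT, the larger CPM exceeded the smaller by a median of 1.44-fold over the 6 genes (1.07 to 2.12), beside 1.27-fold over 6231 other genes in the same range of CPM. In Qa-2- it was 1.52-fold (1.40 to 2.39) beside 1.32-fold over 1062 genes.

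The selection has a sharp edge in counts and ratio. On the WT side, Upk3b (7.63) and Lrrn4 (8.67) were the nearest inside the ratio of 6. Cxcl14, a chemokine with 3894 and 4989 counts in WT and 366 and 534 in Qa-2-, was just outside at 5.91, as was Lgals7, a galectin of stratified epithelia, at 5.67. On the Qa-2- side, Cyp21a1 (6.29) and Gm7061 (7.02) were the nearest inside, and Dnah12, a dynein heavy chain of motile cilia, at 5.81 and Lrrc36 at 5.73 were just outside. A further 12 genes passed the ratio in favour of WT and 17 in favour of Qa-2- with 10 to 29 counts in a library. Of these, 7 of the 12 and 2 of the 17 were protein-coding.

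Of 20 genes known to differ between C57BL/6 substrains or used to tell congenic lines apart, none was among the 12. With 30 counts were 10 of them, of which 1 was higher in WT, 4 were higher in Qa-2- and 5 overlapped on library totals, near the 51.2% of all genes that did not overlap. Wdfy1, an adaptor of endosomal signalling, had 1003 and 1162 counts in WT and 3450 and 2907 in Qa-2-. Nnt, whose mutation marks C57BL/6J, had 4 and 5 counts in WT and 9 and 9 in Qa-2-, too few for the comparison. Entpd4, also on this list, overlaps Gm16867 and lies 23.6 kb from Gm21451. It had 14 and 5 counts in WT and 12 and 6 in Qa-2-, likewise too few. A link between this listed gene and the 2 genes beside it was not tested.

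In the quasi-likelihood test of edgeR across all genes, 10 of the 12 genes passed the filter of 1 CPM in at least 2 libraries, and 0 of them had an adjusted p under 0.05, as had 0 of all 14492 genes (0.00%). AC154457.3 and Klk1b5 were below the filter. At an unadjusted p under 0.05 were all 10, beside 2199 of all genes (15.2%). DESeq2 called all 10, beside 700 of 14492 genes (4.83%). Since the genes were chosen on the same contrast, these calls are no evidence about them.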

How the data were processed

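The authors deposited raw counts of read pairs per gene for 4 poly(A)-selected, strand-specific libraries of uterus tissue. Per the file headers and the submitters' processing notes, reads were aligned to GRCm38.p6 with STAR 2.7.3a and counted with featureCounts 2.0.0 on the reverse strand, with both ends mapped and mapping quality 3 or more; pairs with several positions or genes were not counted. Of 55421 gene identifiers, 55240 were found in GENCODE M21, which gave symbols and biotypes, and 54985 had the same ends there.

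CPM were counts divided by library totals. Genes were selected with Python 3.11.15 as the report describes. Counts were also compared with edgeR 4.0.16 (R 4.3.3, TMM, glmQLFTest, Benjamini-Hochberg adjustment), tested on simulated data, and with DESeq2 1.42.0. Transcripts of the 12 genes were compared with all GENCODE M21 transcripts by BLAST 2.17.0 (alignments of at least 150 bases). Promoters came from RefSeq (GRCm38.p6).

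The 12 genes, the gene lists and the comparisons were chosen with earlier results of these data known. All 12 genes were named, with the nearest genes outside the ratio, and some of the neighbours that do not overlap in the same direction. The mesothelial genes beyond the first list, the kallikrein, steroid and chromosome 14 genes, the parents of the pseudogenes and Gm14830 were added with their values in view. The mean chi-square per gene between the 2 libraries was 206.7 in WT and 129.8 in Qa-2-, far above sampling noise. Other thresholds, scalings, count minimums, tests, a replicate block and leaving out each library were tried as alternatives; the split of non-overlapping genes on TMM-scaled library sizes was added after seeing the data.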

Additional observations from a re-analysis of the deposited data

How the results depend on the processing

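The number of genes selected follows the 2 limits and the use of all 4 libraries. Of 6 genes higher in WT and 6 in Qa-2- (12 in all), a ratio of 4 gave 17 and 25 (42) and a ratio of 10 gave 4 and 3 (7). At least 10 counts gave 18 and 23 (41), and at least 100 counts gave 3 and 0 (3). The ratio of strain means in place of that of the libraries gave 53 and 48 (101). On chromosome 17, where 2 were selected, a ratio of 4 gave 5, a ratio of 10 gave 1 and at least 10 counts gave 5. Leaving out 1 library gave 18 to 129 genes higher in WT, 34 to 77 higher in Qa-2-, 61 to 176 in all and 3 to 10 on chromosome 17, as fewer libraries have to agree. The highest WT count and total came without WT replicate 2, and the highest Qa-2- and chromosome 17 counts without Qa-2- replicate 1. TMM and DESeq2 scaling each gave 8 and 5 genes, with 11 of the 12 among them; Cyp21a1 was lost, and Cxcl14 and Lgals7 were gained. Totals without haemoglobin and mitochondrial genes gave 6 and 6. The scaling moved the share of non-overlapping genes that were higher in Qa-2- from 4712 of 7486 to 3619 of 7382.

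edgeR called 0 genes with TMM and with library totals alone, 61 without the filter and 2 with the replicate block, and DESeq2 called 700. Of the 12 genes these were 0, 0, 6, 0 and 10, with all 12 tested without the filter and 10 otherwise. Without 1 library edgeR called 0 to 45 genes and, of the 5 or 6 of the 12 genes that passed the filter, 0 to 1, in both cases with calls only without WT replicate 2; the others had no such fit. In these fits the lone library is assumed to vary like the other strain. The replicate block changed no call of the 10 genes it tested. The labels do not say that numbers pair the mice, and the deviations of same-numbered libraries correlated at -0.37 over 14626 genes. The log2 fold changes of the 10 genes tested kept their direction in 52 of 52 alternatives, as the choice of the genes fixes. Depth limits the genes at 0 to 1 counts, whose ratios have no upper limit of use.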
